A study of Bos taurus with 4 samples.

Results

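The genes described here act on nucleosomes. They are the SMARC, CHD and INO80 remodelers, the ARID proteins, the KDM histone demethylases and the SETD methyltransferases, compared between expanded bovine blastocysts developed from vitrified morulae and those developed from unfrozen control morulae. Members were all probes of the EmbryoGENE EMBV3 array whose gene symbol began with SMARC, with CHD and a digit, or with ARID, INO80, KDM or SETD. This gave 58 of the 15229 genes with a symbol, measured by 89 of the 43794 probes, and 1 further probe was left out by the rule. The families were 13 SMARC genes (19 probes), 9 CHD genes (13 probes), 10 ARID genes (18 probes), 5 INO80 genes (8 probes), 10 KDM genes (15 probes) and 11 SETD genes (16 probes). Membership came from the names alone and not from a measured value.

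Embryos of both groups were produced in vitro from abattoir oocytes of beef cattle. Vitrified morulae were held on cryotops in ethylene glycol and DMSO, warmed and cultured to the expanded blastocyst stage, whereas control morulae were, by the Methods and the source names of the samples, cultured unfrozen. A cryopreservation tag in the labels reads Yes for both channels, and the groups here follow the source names. RNA of 4 vitrified and 4 control pools was amplified and hybridized in pairs to the 4 arrays of 1 slide, with the vitrified pool in Cy5 on arrays 1 and 2 and in Cy3 on arrays 3 and 4. The labels give 7 embryos per pool and collection 7 days after fertilization, and the Methods differ from them in pool size and in the day of the morulae. The Methods describe replicates of separate fertilization cycles, but which cycle an array holds is not given.

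ATP-dependent remodelers slide, evict or exchange nucleosomes. The SMARC genes, together with several ARID genes, encode ATPases and subunits of the SWI/SNF and ISWI complexes, the CHD genes encode chromodomain ATPases such as those of the NuRD complex, and the INO80 genes encode an ATPase and its partner subunits. The KDM enzymes remove methyl groups from lysines of histone H3, and most SETD enzymes add them. In mammalian embryos, these proteins take part in activation of the embryonic genome and in the divergence of trophectoderm and inner cell mass.

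A value below is the log2 ratio of the vitrified over the control pool of the same array, so that it is positive where the vitrified pool was higher. The log2 fold change is the limma estimate over the 4 arrays, with its SE and a two-sided p, from a model with a term for the dye. Probes were tested when above background in at least 4 of 8 readings, a reading being 1 dye of 1 array. This held for 70 member probes of 49 genes, of 28944 probes tested in all. In all 8 readings 52 member probes were above background, in none 7 were, and no member reading was saturated. The untested genes were SMARCA1, SMARCC1, SMARCD3, CHD5, ARID4A, INO80D, KDM1B, SETD1B and SETD7. Each gene below is represented by its brightest tested probe unless stated, and the signal of a probe is not set against that of another. With 4 arrays, their number limits the precision. The median SE was 0.16 over the member probes (range 0.14 to 0.29) and 0.16 over all probes. In RNA of whole embryos, fewer cells of a type and less RNA per cell cannot be told apart.

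Array 3 had the widest ratios. Their SD over all probes tested was 0.37, 0.44, 0.54 and 0.32 on arrays 1 to 4, and over the member probes it was 0.33, 0.37, 0.53 and 0.29. Pearson's r between arrays lay between -0.15 and 0.18 over all probes and between -0.18 and 0.10 over the 70 member probes, where several probes share a gene. All 12 trophectoderm markers, among them CDX2 and IFNT, were above background in all 8 readings, as were the inner cell mass markers POU5F1, NANOG and SOX2. The cumulus markers HAS2, LHCGR and AMH and the oocyte markers GDF9 and ZAR1 were above background in no reading. Others of these lists were measured: 5 of 10 cumulus and 6 of 10 oocyte markers were tested, and CYP19A1, INHBA, OOEP and MOS were above background in all 8 readings. The log2 of the summed signal of a list weighs its brightest genes most. For the cumulus markers it was 9.75 to 9.99 in vitrified pools and 9.81 to 10.1 in control pools. For the oocyte markers it was 9.94 to 10.1 in vitrified pools and 9.87 to 10.04 in control pools. At an unadjusted p under 0.05, 3.41% of all probes were higher and 4.21% lower in vitrified blastocysts. Of the 12 trophectoderm markers 0 were higher and 4 lower, with a median log2 fold change of -0.28. The log2 of their summed signal was 17.275, 17.32, 17.07 and 17.16 in the vitrified pools of arrays 1 to 4. In the paired control pools it was 17.18, 17.54, 17.55 and 17.45, above the vitrified pool on arrays 2 to 4 and below it on array 1. Of the 10 inner cell mass markers tested 3 were higher and 1, NANOG (-0.78), was lower, with a median of 0.31. The log2 of their summed signal was 14.81, 14.98, 14.39 and 14.755 in the vitrified pools of arrays 1 to 4. In the paired control pools it was 14.55, 14.64, 14.25 and 14.25, below the vitrified pool on each array. Of the 7 hypoblast markers tested 1 was higher, PDGFRA (0.47), and 2 lower, APOA1 (-1.01) and HNF4A (-0.79), with a median of -0.04. The log2 of their summed signal was 13.6 to 14.1 in vitrified pools and 13.7 to 14.3 in control pools. The 2 other probes of PDGFRA had -0.0911 and 0.056, and those of HNF4A had -0.0755 and -0.0167. The second probe of APOA1 had -0.6829. The brightest PDGFRA probe was above 0 on arrays 1 and 2 and below 0 on arrays 3 and 4, and thus changed sign with the labeling. The part of these lineage markers in the values of the chromatin genes was not tested.

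Few of the chromatin genes differed between vitrified and control blastocysts. SETD5, which encodes a SET domain protein, was the only member probe higher at an unadjusted p under 0.05, and CHD2, a chromodomain remodeler, the only one lower. Each is 1.43% of the 70 member probes, against 3.41% of all probes higher and 4.21% lower. In either direction these were 2.86% of the members and 7.62% of all probes. A change of 2-fold or more at such a p was seen for 0 members and for 0.218% of all probes. No member passed an adjusted p under 0.05 (lowest 0.629), and neither did any other probe (0%, lowest 0.198). The log2 fold changes of the members lay between -0.40 and 0.38, their median was -0.03 (all probes 0.01), and their median size without sign was 0.13 (all probes 0.14). With a brightest probe for each gene, 24 genes were above 0 and 25 below.

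The 95% interval of every member probe lay within a 2-fold change in either direction, as it did for 97% of all probes. For 54 member probes (77.1%) it lay within a 1.5-fold change, against 67.8% of all probes. The same direction on all 4 arrays was seen for 4 member probes above 0 (5.71%, against 7.27% of all probes) and 1 below 0 (1.43%, against 7.13%). Those above 0 were a probe each of SMARCA2, SMARCD2, SMARCE1 and KDM2B, and the one below 0 was that of ARID5A. The vitrified and control pools did not overlap in signal for 2 member probes higher in vitrified pools (2.86%, against 1.41% of all probes), those of SMARCD2 and KDM2B, and for 0 lower (against 1.65%).

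**Figure D1:**
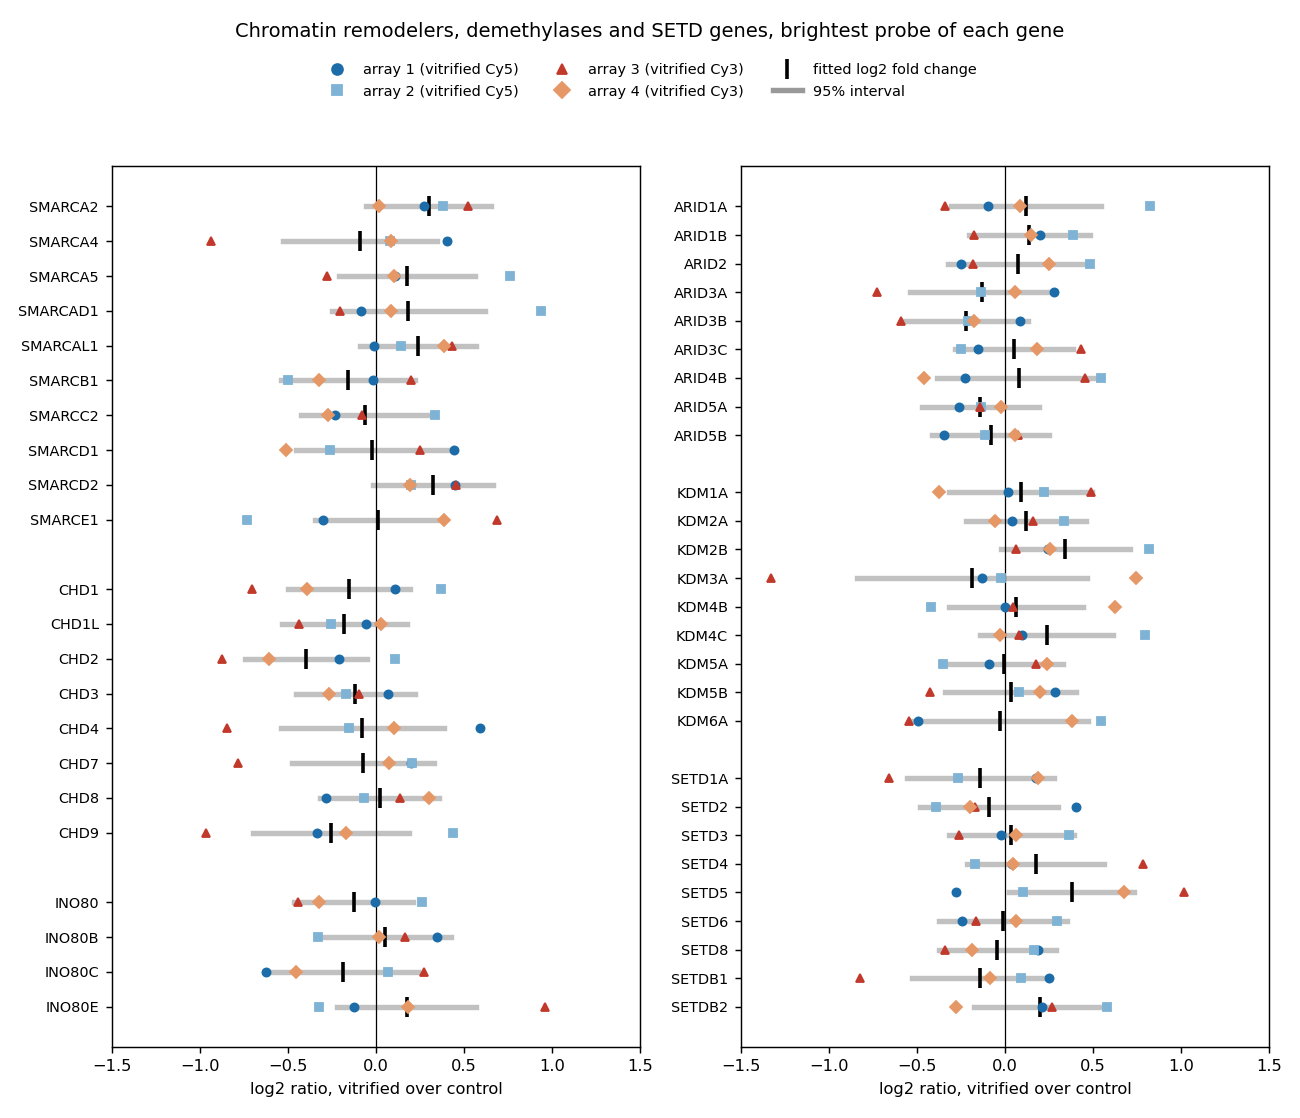
Log2 ratios of vitrified over control blastocysts (x axis) of the brightest tested probe of the 49 genes (y axis), by family, with 1 symbol for each array, a black tick for the limma log2 fold change and a grey bar for its 95% interval. The interval lies clear of 0 for CHD2, below it, and for SETD5, above it, and the symbol of array 3 lies below -0.7 for CHD1, CHD2, CHD4, CHD7, CHD9, SMARCA4, ARID3A, KDM3A and SETDB1.

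Among the ATPases of the SWI/SNF and ISWI complexes, SMARCA2 (BRM) was above 0 on each array and SMARCA4 (BRG1), its alternative in the same complex, was not. SMARCA2 had log2 ratios of 0.27, 0.38, 0.52 and 0.02 on arrays 1 to 4, with a log2 fold change of 0.30 (SE 0.16, adjusted p = 0.700). Its second probe had 0.29, with a ratio of -0.06 on array 4. For that second probe, the control pools of arrays 1 and 3 were not above background. SMARCA4, which mouse embryos need around implantation, had 0.40, 0.08, -0.94 and 0.08, and a log2 fold change of -0.09 (SE 0.19). Its ratio on array 3 thus opposed those on the other arrays. SMARCA5 (SNF2H), the ISWI ATPase, had 0.11, 0.76, -0.28 and 0.10, and a log2 fold change of 0.17 (SE 0.17). SMARCAD1 and SMARCAL1, SNF2-type enzymes of heterochromatin upkeep and of fork repair, had log2 fold changes of 0.18 and 0.24.

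SMARCD2, a BAF60 subunit of SWI/SNF, held the most even ratios of the genes above 0, namely 0.45, 0.20, 0.45 and 0.19 on arrays 1 to 4. Its normalized log2 signal was 8.41, 8.18, 8.46 and 8.21 in the vitrified pools, against 7.96, 7.99, 8.01 and 8.02 in the control pools. The vitrified pools were all above the control pools. The log2 fold change was 0.32 (SE 0.15, 95% interval -0.02 to 0.66, adjusted p = 0.672). It was above background in all readings. The related SMARCD1 had a log2 fold change of -0.02, with ratios on both sides of 0. The core subunit SMARCB1 had -0.16 (second probe -0.07) and the scaffold subunit SMARCC2, above background in only 1 vitrified and 3 control readings, had -0.06.

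SMARCE1 (BAF57) had 4 tested probes that did not share a direction. The brightest had ratios of -0.30, -0.73, 0.69 and 0.38 on arrays 1 to 4 and a log2 fold change of 0.01 (SE 0.16). Its sign differed between arrays 1 and 2 and arrays 3 and 4, with a dye term of -0.53. The 3 other probes had log2 fold changes of 0.28, -0.10 and -0.15. Of the ARID subunits of SWI/SNF, ARID1A, which targets the BAF form to DNA, had -0.09, 0.82, -0.34 and 0.08 on arrays 1 to 4, for a log2 fold change of 0.12 (SE 0.19). Its alternative ARID1B had 0.14 and ARID2, of the PBAF form, 0.07 (second probe -0.11). Over the 10 tested genes of the SWI/SNF complex, 6 were above 0 and 4 below, with a median of 0.04. For the 10 SMARC genes the median was 0.09 with 1 probe each and 0.01 over the 15 SMARC probes, and 0 SMARC probes were called in either direction.

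The CHD genes lay mostly below 0. Of the 8 tested genes 7 had a negative log2 fold change. So did 9 of the 10 probes, against 14046 of all 28944 probes tested. The median over the CHD probes was -0.13, against 0.01 over all probes tested. CHD2 had ratios of -0.21, 0.11, -0.88 and -0.61 on arrays 1 to 4. Its normalized log2 signal was 9.07, 9.11, 7.75 and 9.12 in the vitrified pools, against 9.28, 9.003, 8.63 and 9.73 in the control pools. The vitrified pool of array 3 was far below the other vitrified pools, and the groups overlapped. The log2 fold change was -0.40 (SE 0.15, 95% interval -0.74 to -0.05, adjusted p = 0.629). The dye term was 0.35, and the ratios were lower on both arrays with the vitrified pool in Cy3. Without array 1 or array 3 the log2 fold change of CHD2 was -0.32 or -0.33, and its unadjusted p was no longer under 0.05.

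The remaining CHD genes were below 0, except CHD8, and all their 95% intervals included 0. CHD1, which binds methylated H3K4 and keeps chromatin open in mouse embryonic stem cells, had 0.11, 0.37, -0.70 and -0.39 on arrays 1 to 4, for a log2 fold change of -0.15 (SE 0.15) and a dye term of 0.39. Its 2 other probes had -0.29 and -0.07. CHD4, the ATPase of NuRD, had 0.59, -0.15, -0.84 and 0.10, for a log2 fold change of -0.08 (SE 0.20). CHD9 had -0.33, 0.44, -0.96 and -0.17, for -0.26 (SE 0.20). CHD7, the gene of CHARGE syndrome in humans, had 0.20, 0.21, -0.78 and 0.08, for -0.07 (SE 0.18). The vitrified pool of array 3 was not above background for CHD7. CHD3, the alternative NuRD ATPase, had -0.12, and CHD1L, a remodeler recruited by poly(ADP-ribose), had -0.18. CHD8, which binds beta-catenin, had 0.02.

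Array 3 stood apart in the CHD family. The median ratio of the 10 CHD probes was 0.01, 0.02, -0.74 and -0.07 on arrays 1 to 4, so that its SD over the arrays was 0.37, against 0.21 for the INO80, 0.13 for the ARID, 0.13 for the SETD, 0.10 for the SMARC and 0.07 for the KDM median. On array 3, 90% of the CHD probes were below 0, against 48.1% of all probes tested. There, CHD7 and the CHD1 probes other than the brightest were not above background in the vitrified pool. Without array 3 the CHD median was -0.05, and without array 4 it was -0.29. The low ratio on array 3 lay in the vitrified pool, which was in Cy3 there. The median dye term of the CHD probes was 0.29, against -0.0015 for all probes tested. Set against each probe's mean over the 4 pools of its group, the CHD probes had a median log2 signal of -0.50 in the vitrified pool of array 3 and of -0.05 in its control pool. In the other vitrified pools this median was 0.14, 0.25 and 0.15. In the vitrified pool of array 3 it was also below 0 for the SETD (-0.20), KDM (-0.16) and ARID (-0.04) probes, above 0 for the SMARC (0.08) and INO80 (0.06) probes, and -0.0047 for all probes tested. The trophectoderm markers had median ratios of 0.06, -0.51, -0.62 and -0.12 on arrays 1 to 4, and their part in the CHD values was not tested.

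**Figure D2:**
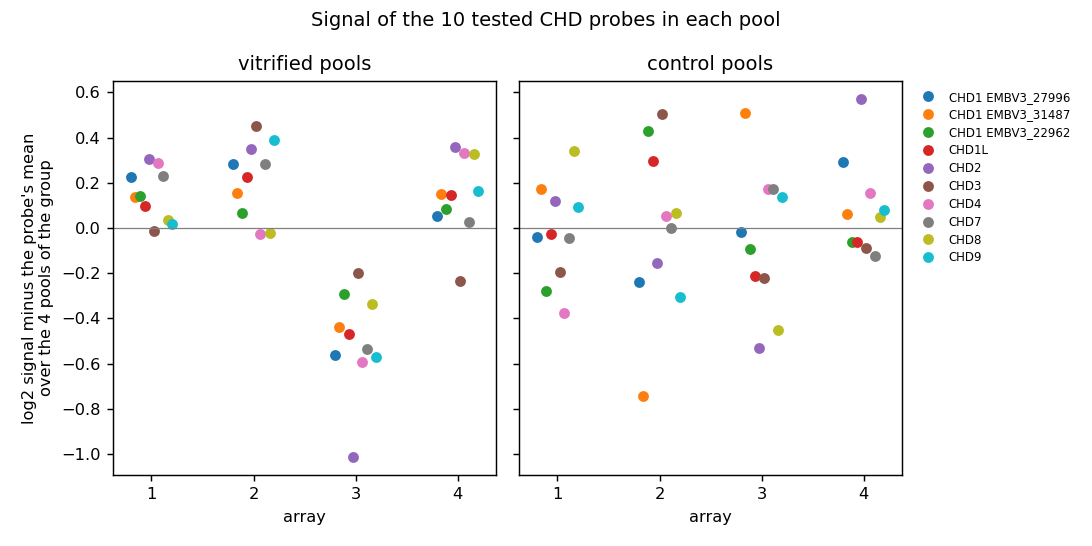
Normalized log2 signal of the 10 tested CHD probes, minus the probe's mean over the 4 pools of its group (y axis), in the vitrified pools (left) and the control pools (right) of arrays 1 to 4 (x axis), with 1 point for each probe. All 10 points of the vitrified pool of array 3 lie below 0, CHD2 the lowest, whereas those of the control pools lie on both sides.

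The INO80 genes varied on both sides of 0. INO80, the ATPase of the complex, had 0.00, 0.26, -0.44 and -0.32 on arrays 1 to 4, for a log2 fold change of -0.13 (SE 0.15). Of its subunits, INO80B had 0.05 (second probe -0.12) and INO80C -0.19 (second probe -0.15). INO80E had ratios of -0.12, -0.33, 0.96 and 0.18, for a log2 fold change of 0.17 (SE 0.17) and a dye term of -0.40, and its second probe had -0.04. The median of the 7 probes was -0.12, and it was -0.04, 0.04, 0.17 and -0.32 on arrays 1 to 4. It was -0.005 without array 4, -0.06 without array 1 or array 2, and -0.04 with 1 probe for each gene.

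Of the ARID proteins outside SWI/SNF, ARID5A, an RNA-binding protein of immune cells, was below 0 on each array but by little, with -0.26, -0.14, -0.14 and -0.02, for a log2 fold change of -0.14 (SE 0.15, adjusted p = 0.839). ARID3A, which takes part in mouse trophectoderm development, had 0.28, -0.14, -0.73 and 0.06, for -0.13 (SE 0.18), and its second probe had -0.22. ARID3B had -0.22, the lowest of the ARID genes. ARID3C had 0.05, ARID5B, a partner of the demethylase PHF2, had -0.08, and ARID4B, a SIN3-associated protein, had 0.08 (second probe 0.13). The median of the 12 ARID probes was -0.02, and 0 of them were called. This median was 0.05 with 1 probe for each gene, 0.0024 without array 1 and -0.11 without array 2.

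The demethylases lay mostly above 0. Of 13 KDM probes 9 were above 0, 3 of these of KDM5B, against 14898 of all 28944 probes tested. Of 9 genes 6 were above 0, and the median over the probes was 0.09. This median was above 0 on every array (0.04, 0.18, 0.05 and 0.15), with an SD over the arrays of 0.07. No KDM probe was called. KDM2B, which brings a variant Polycomb complex to CpG islands, had 0.24, 0.81, 0.06 and 0.25 on arrays 1 to 4. Its normalized log2 signal was 7.34, 7.44, 7.26 and 7.33 in the vitrified pools, against 7.10, 6.62, 7.20 and 7.07 in the control pools. The vitrified pools were all above the control pools, by least on array 3, and the control pool of array 2 was the lowest and below background. The log2 fold change was 0.34 (SE 0.16, 95% interval -0.02 to 0.71, adjusted p = 0.673). Without array 1 it was 0.49, at an unadjusted p under 0.05, and without array 2, where the ratio was largest, it was 0.20.

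The related KDM2A, an H3K36 demethylase, had a log2 fold change of 0.12. KDM4C, which acts on H3K9 and H3K36, had 0.10, 0.79, 0.08 and -0.03, for 0.24 (SE 0.17, adjusted p = 0.760), and array 2 stood apart. Without array 2 its value was 0.06. KDM4B had 0.06, with a second probe at -0.20. KDM3A, an H3K9 demethylase, had the largest SE of the members, with -0.13, -0.02, -1.33 and 0.74 on arrays 1 to 4 and a log2 fold change of -0.19 (SE 0.29). Without array 4 this was -0.70 (adjusted p = 0.111) and without array 3 it was 0.33. KDM6A (UTX), an H3K27 demethylase, changed sign between arrays within either dye orientation, with -0.50, 0.54, -0.55 and 0.38, for -0.03 (SE 0.22). Of the H3K4 demethylases, KDM1A (LSD1), which works with the CoREST proteins, had 0.02, 0.22, 0.49 and -0.37, for 0.09 (SE 0.18, second probe 0.13). KDM5A had -0.01. KDM5B had 0.03, and its 2 other probes had 0.22 and 0.19.

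**Figure D3:**
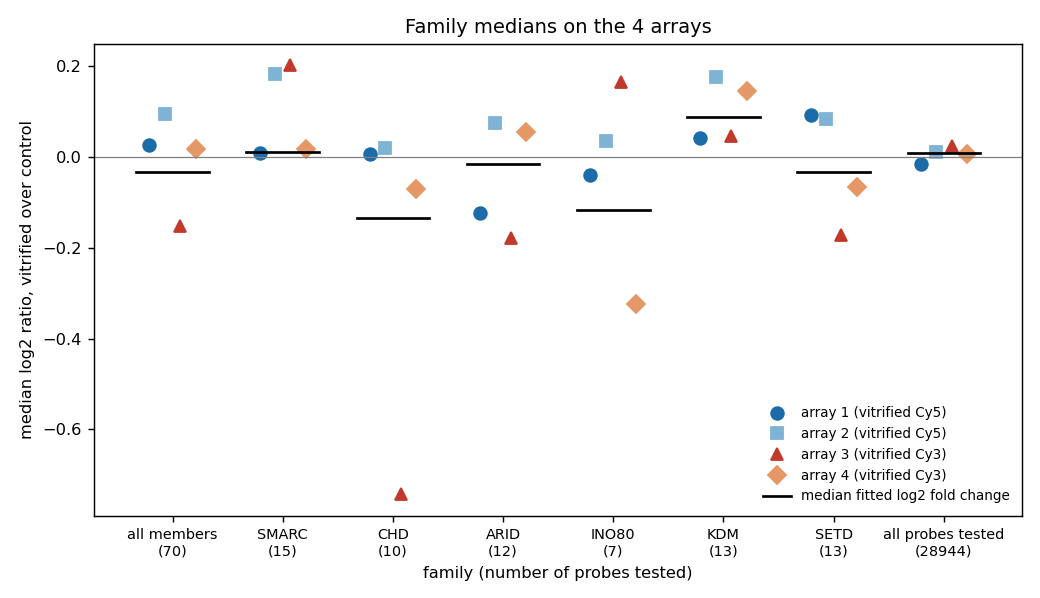
Median log2 ratio of vitrified over control blastocysts (y axis) over the tested probes of each family and over all probes (x axis, number of probes in brackets) on each of the 4 arrays (symbols), with a black line for the median log2 fold change. The CHD median is -0.74 on array 3 and near 0 on the others, and the KDM median is above 0 on all 4 arrays.

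Among the SETD genes, SETD5 had ratios of -0.28, 0.10, 1.02 and 0.67 on arrays 1 to 4. Its normalized log2 signal was 7.90, 8.02, 8.45 and 8.53 in the vitrified pools, against 8.18, 7.92, 7.44 and 7.86 in the control pools. The pools of both groups overlapped, and the difference was on arrays 3 and 4, where the vitrified pools were in Cy3. The log2 fold change was 0.38 (SE 0.16, 95% interval 0.02 to 0.73, adjusted p = 0.644). The dye term was larger than the group difference, at -0.47. Without array 2 or array 3 the log2 fold change of SETD5 was 0.28 or 0.29, and its unadjusted p was no longer under 0.05.

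The methyltransferases with known histone sites gave small values. SETD1A, of the H3K4 COMPASS complexes, had a log2 fold change of -0.14 and SETD2, the H3K36 methylase, -0.09 (other probes -0.03 and -0.22). SETDB1, which methylates H3K9 and silences retroelements, had 0.25, 0.09, -0.82 and -0.08 on arrays 1 to 4, for -0.14 (SE 0.17). SETDB2, also of H3K9, had 0.20. SETD8, known as KMT5A, which methylates H4K20, had -0.04. SETD4 had 0.17, with a second probe at -0.23. SETD6, which methylates the NFKB subunit RELA, had -0.01. SETD3, the actin histidine methyltransferase, had 0.04, and its second probe had 1.32, 0.08, -0.79 and -0.74, for -0.03 and a dye term of 0.73. For that second probe, the control pool of array 1 and the vitrified pools of arrays 3 and 4 were not above background. The median of the 13 SETD probes was -0.03, with 4 above 0 and 9 below.

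**Figure D4:**
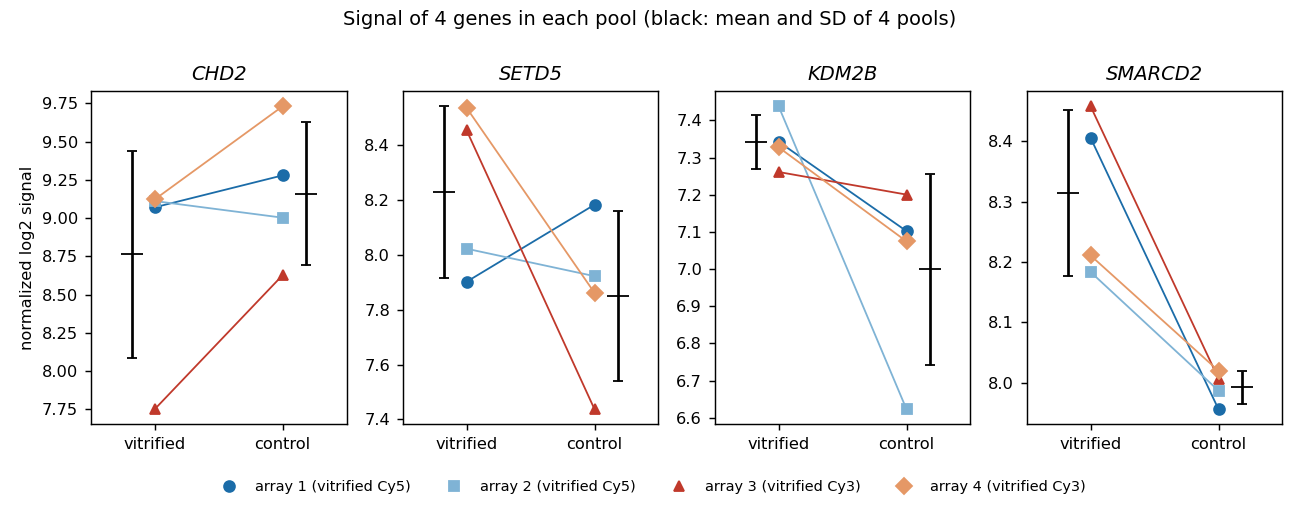
Normalized log2 signal (y axis) of CHD2, SETD5, KDM2B and SMARCD2 in the vitrified and the control pool (x axis) of each array, joined by a line, with the mean and SD of the 4 pools in black. The vitrified pools lie above all control pools for KDM2B and SMARCD2, and the groups overlap for CHD2 and SETD5.

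The dye term passed an unadjusted p under 0.05 for 8 member probes (11.4%), against 8.3% of all probes, and thus for more member probes than the group difference did. They were the probes of CHD2, SETD5, SMARCE1, SETD3, CHD1 and INO80E given above, the second probe of ARID2 (dye term 0.43) and the second probe of INO80B (0.34). Both members called for the group difference were among them. Of these probes, those of SETD3, ARID2 and INO80B were not above background in every reading. The dye term is the part of the ratio that turned with the labeling, with only 2 arrays in either orientation. Of 16 genes with several tested probes, 9 had probes of 1 sign.

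**Figure D5:**
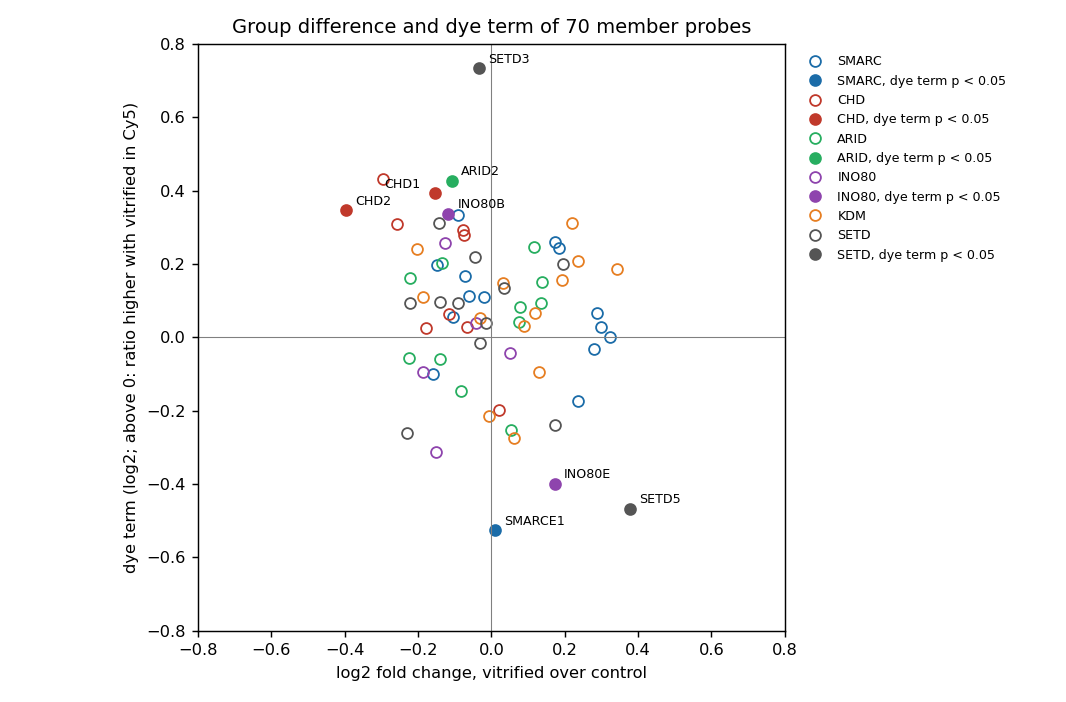
Log2 fold change of vitrified over control blastocysts (x axis) against the dye term (y axis, log2) of the 70 tested member probes, with 1 colour for each family and filled points where the dye term had an unadjusted p under 0.05. CHD2 lies farthest to the left and SETD5 farthest to the right, and both are filled.

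Of the partner genes of these complexes, HDAC2 and VPS72 were called. Of 11 tested SWI/SNF partners and of 9 ISWI partners, 0 were called (7.62% of all probes in either direction), with medians of 0.10 and 0.10. SS18L1, a SWI/SNF subunit, had 0.21 and BCL7B -0.19, and the ISWI partner RBBP7, a histone chaperone, had 0.40 (SE 0.24). Of 10 NuRD partners 1 was higher (10%), and so was 1 of 10 SIN3 partners (10%), against 3.41% of all probes higher. In both lists it was the deacetylase HDAC2. HDAC2 had 1.00, 0.79, 0.46 and -0.03 on arrays 1 to 4 and a log2 fold change of 0.55 (SE 0.16, adjusted p = 0.529). Of 16 INO80 and SRCAP partners and other remodelers (EP400, HELLS and ATRX) 1 was lower (4.21% of all probes lower). It was VPS72, an H2A.Z chaperone subunit of SRCAP, with -0.08, -0.75, -0.44 and -0.38, for -0.41 (SE 0.16, adjusted p = 0.633). Its second probe had -0.21. The medians of these lists were 0.11 for NuRD, 0.13 for SIN3 and 0.02 for INO80, SRCAP and the other remodelers.

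Of 13 further tested genes, of JmjC domain and CoREST proteins, 0 were called (7.62% of all probes), with a median of 0.13. Not all of these are histone demethylases or their cofactors, among them HIF1AN and JARID2. The largest was RCOR2, a CoREST partner of KDM1A, which had 0.77, 0.34, 1.36 and -0.41, for 0.51 (SE 0.26, adjusted p = 0.693). Of 22 other tested SET domain proteins and methyltransferase cofactors 0 were called (7.62% of all probes), with a median of -0.12. MEN1 and RBBP5, subunits of H3K4 methyltransferase complexes, had -0.33 (SE 0.15) and 0.32 (SE 0.17).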

How the data were processed

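Median spot intensity and local background of both dyes were used as deposited by the authors, who gave no background-subtracted intensities. The deposited log2 ratios (Cy5 over Cy3), normalized by the authors, had r of at least 0.9989 with loess ratios made here before quantile normalization and served as an alternative. In R 4.3.3 with limma 3.58.1, background was subtracted (floor 0.5), loess was run on each array, quantile normalization followed across arrays, and ratios were turned to vitrified over control. A reading above background lay more than 2 SD over the mean of the 153 negative controls, which held for 60.1% to 67.3% of probes. The share was lowest on array 3, at 60.1% in Cy5 and 60.3% in Cy3. The limma model held group and dye (2 residual and 6.75 prior degrees of freedom), with Benjamini-Hochberg adjustment over 28944 probes. The steps were tested on simulated data.

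Members and lists were chosen with earlier results of these data known. Named genes were members with a role, any with an unadjusted p under 0.05, the highest and lowest of each family, and up to 2 partners of smallest p for each list. The text gives a value for each tested member gene. Symbols are those of the array annotation. RefSeq annotation of ARS-UCD2.0 held 57 members under the same symbol and 1 under a synonym. Alternatives were normexp (offset 50) or no background subtraction, other filters on dim probes, median centring, the fit without quantile normalization or without the dye term, an intensity trend with a robust fit, the authors' ratios, 1 value for each gene and leaving out each array. Slow-frozen blastocysts and quantitative PCR were not analysed here.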

Additional observations from a re-analysis of the deposited data

Results flagged for a closer look

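In 56 results with a value on each of 4 arrays, the gap between the highest or lowest array and the nearest of the others was set against the whole range, with Dixon's 95% critical ratio for 4 values. Chance alone marks about 1 in 20 groups, and 3 of the 56 results were marked. The CHD family median had a ratio of 0.882, with array 3 apart at -0.74 against 0.01, 0.02 and -0.07 on arrays 1, 2 and 4. CHD7 had a ratio of 0.867, also by array 3, at -0.78 against 0.20, 0.21 and 0.08. The vitrified pool of array 3 was not above background for CHD7. CHD7 is part of the CHD median, so that these marks share data. KDM4C had a ratio of 0.849, by array 2, at 0.79 against 0.10, 0.08 and -0.03 on arrays 1, 3 and 4. All are log2 ratios of vitrified over control blastocysts.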

How the results depend on the processing

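No member passed an adjusted p under 0.05 in any alternative run (lowest 0.111, without array 4). At an unadjusted p under 0.05, 1 member probe was higher and 1 lower. The higher count was 0 with a filter of all 8 readings, 0 with no dye term, 2 with an intensity trend and a robust fit, 3 of 89 probes with no filter, and 0 to 2 with 1 array left out. The lower count was 0 with no dye term, 0 with the trend and robust fit, and 0 to 4 with 1 array left out. In either direction, the shares of members and of all probes called were 1.92% and 8.19% with the filter of 8 readings. They were 0% and 6.82% with no dye term, 2.86% and 8.14% with the trend, and 4.49% and 6.84% with no filter. With 1 array left out, 1.43% to 8.57% of members and 3.76% to 14.8% of all probes were called. Without array 4, the lower probes were CHD2, KDM3A, 1 of CHD1 and 1 of KDM4B, and 8.57% of member probes and 14.8% of all probes were called. CHD2 was not called with no dye term or with the trend, and SETD5 not with no dye term, the filter of 8 readings, no quantile normalization or the authors' ratios. KDM2B was called with no filter, no quantile normalization, the trend or the authors' ratios, and SMARCD2 with no filter.

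The SMARC median of 0.01 was 0.18 with the filter of 8 readings, 0.0111 to 0.147 with 1 array left out, and -0.02 with no quantile normalization or the authors' ratios. The KDM median of 0.09 was 0.0611 to 0.201 with 1 array left out. The CHD median stayed below 0 and the KDM median above 0 in each alternative that gives a median. The median of all members was 0.0012 without array 3. Log2 fold changes that changed sign were those of CHD8 (-0.0039) and SMARCE1 (-0.0204 and -0.0207) with no quantile normalization or the authors' ratios, and of ARID2 (-0.0163), INO80B (-0.0333), KDM4B (-0.07) and SETD4 (-0.0281) as the mean over their probes. With 1 array left out, 27 of 49 genes changed sign, with values from -0.11 to 0.35 for ARID1A, -0.11 to 0.26 for ARID2, -0.33 to 0.0629 for ARID3A, -0.0106 to 0.12 for ARID3C, -0.15 to 0.30 for ARID4B, -0.31 to 0.16 for CHD4, -0.29 to 0.14 for CHD7, -0.0333 to 0.0745 for CHD8, -0.12 to 0.22 for INO80B, -0.0207 to 0.37 for INO80E, -0.13 to 0.30 for KDM1A, -0.70 to 0.33 for KDM3A, -0.0831 to 0.21 for KDM4B, -0.0729 to 0.0589 for KDM5A, -0.12 to 0.19 for KDM5B, -0.29 to 0.23 for KDM6A, -0.35 to 0.0714 for SETD1A, -0.29 to 0.11 for SETD2, -0.0608 to 0.13 for SETD3, -0.0115 to 0.36 for SETD4, -0.15 to 0.12 for SETD6, -0.33 to 0.0424 for SETDB1, -0.35 to 0.16 for SMARCA4, -0.0708 to 0.44 for SMARCAD1, -0.20 to 0.0802 for SMARCC2, -0.21 to 0.17 for SMARCD1 and -0.10 to 0.12 for SMARCE1. These causes were not tested. With 1 array left out, the lone array of its dye orientation has the weight of both others.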
